A study of Mus musculus with 8 samples.

Results

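The genes described here are the 6 contactins, Cntn1 to Cntn6, and the 4 members of the L1 family, L1cam, Chl1, Nrcam and Nfasc, in cochlear nucleus cells of mouse embryos. The 10 genes were taken by symbol from a table of 39017 Ensembl genes, each matched a single row, and all 10 were among the 19494 genes with enough counts to be tested. RNA came from C57BL/6 embryos at E18.5 whose fluorescent cells had been isolated by flow cytometry, and the study asked what the transcription factors Hoxa2 and Hoxb2 do in these cells. The 4 wild type libraries carried Math1::Cre and the Rosa tdTomato reporter. The 4 mutant libraries carried both of these and, by their titles, Hoxa2+/fl with Hoxb2fl/fl. The design text instead gives Hoxa2fl/fl, and the 2 statements were not reconciled. Every embryo therefore carried the Cre driver and the reporter, and deletion was limited to cells with a history of Math1 (Atoh1) expression, the lineage of the rhombic lip. Each library pooled 3 littermates and 30000 sorted cells, and each litter had a different mother. Libraries are named by the number in their column heading, mutant 1 to 4 and wild type 5 to 8.

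Contactins are cell surface proteins built of immunoglobulin and fibronectin type III domains and held in the membrane by a lipid (GPI) anchor. The L1 family has a similar outer part, but crosses the membrane and binds ankyrin, and through it the spectrin skeleton, with its cytoplasmic tail. Members of both families bind each other in cis and in trans, and guide, bundle and sort axons. They later organise the axon initial segment and the node of Ranvier. At the paranodal junction beside the node, contactin-1 pairs with the contactin-associated protein Caspr. Contactin-2, also called TAG-1, is carried by young migrating neurons and growing axons of the rhombic lip lineages, and contactin-5 (NB-2) is known for its role in glutamatergic neurons of the auditory brainstem.

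Total counts ran from 24789043 to 51118195 per library. Of the targeted genes, Hoxb2 ranged from 37.4 to 46.7 CPM (read counts as a rate per library, scaled by TMM) in the wild type group and from 3.77 to 6.81 CPM in the mutants (log2 fold change -3.00, SE 0.199; adjusted p = 3.76e-05 by edgeR). Hoxa2 ranged from 30.8 to 55.1 CPM and from 11.1 to 48.0 CPM respectively (log2 fold change -0.70, SE 0.401; adjusted p = 0.506 by edgeR). Markers of the labelled lineage were present: 10 markers of Atoh1-lineage excitatory neurons summed to between 1884 and 2048 CPM in wild type and between 1399 and 1582 CPM in mutants, where Nhlh1 and Meis1 fell, and 6 granule lineage markers to between 6343 and 9193 CPM. Those of other classes were lower, with 385 to 866 CPM for 7 astroglial markers, 87.4 to 118 CPM for 10 oligodendrocyte lineage markers, 65.9 to 116 CPM for 8 inhibitory neuron markers, 10.63 to 19.98 CPM for 6 microglial markers and 4.35 to 10.1 CPM for 4 motor neuron markers. Among the microglial markers C1qa fell, from a mean of 2.36 CPM in wild type to 0.203 CPM (log2 fold change -3.45; adjusted p = 0.0115 by edgeR). Means were also lower in mutants for P2ry12 (2.32 and 0.557 CPM), Cx3cr1 (1.57 and 0.302 CPM) and Aif1 (0.388 and 0.067 CPM). P2ry12 and Cx3cr1 did not pass, and Aif1 was too low to be tested. Csf1r, the highest marker of this list, had 10.9 and 11.4 CPM. Endothelial, mesenchymal, blood and Schwann cell markers summed to at most 7.09 CPM. Microglial Tmem119, motor neuron Chat, the globins Hba-a1 and Hba-a2, and the 3 Schwann cell markers stayed under 0.5 CPM in every library. The markers of cycling cells, Mki67, Top2a and Ccnb1, set 3 libraries apart: they summed to 773 CPM in wild type 5, 746 in wild type 6 and 565 in mutant 1, but to between 159 and 291 in the others.

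The members fell into an abundant and a rare set. Levels between genes are compared as CPM per kb of the deposited gene length. In wild type, Nrcam, which helps to assemble nodes and to steer commissural axons, was highest at 45.6 ± 9.19 CPM per kb (SD, n = 4). Cntn2 followed at 38.6 ± 5.99 and L1cam, the founding member of the L1 family, at 33.5 ± 3.25 CPM per kb (SD, n = 4). Below them came Cntn1 at 23.0 ± 4.71, Chl1 (close homolog of L1) at 20.4 ± 8.30 and Nfasc, the neurofascin of initial segments and nodes, at 16.9 ± 3.33 CPM per kb (SD, n = 4). The remaining contactins lay far lower, with Cntn3 at 1.81 ± 1.15, Cntn5 at 0.742 ± 0.363, Cntn6 at 0.191 ± 0.0692 and Cntn4 at 0.189 ± 0.0757 CPM per kb (SD, n = 4). Neighbours in this order overlapped between libraries, except that the ranges of L1cam and Cntn1, of Nfasc and Cntn3, and of Cntn5 and Cntn6 did not. In mutant libraries Nrcam was again highest at 49.3 ± 9.41 CPM per kb, and Chl1 stood next at 41.1 ± 12.4 CPM per kb (SD, n = 4).

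**Figure D1:**
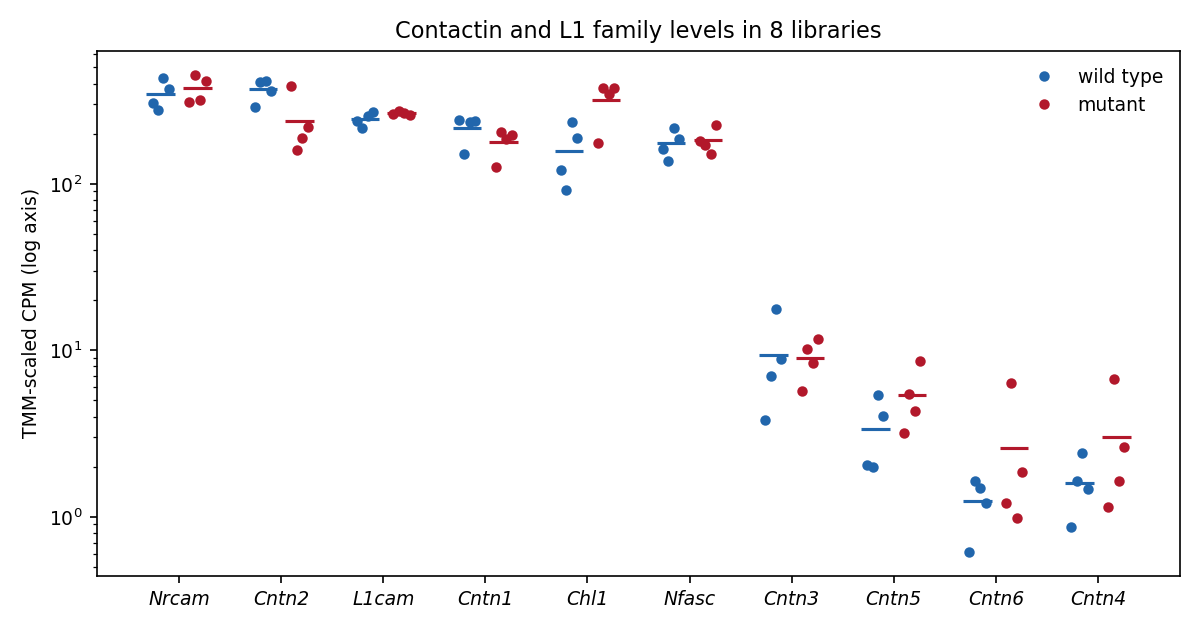
Level of each member in each library, as TMM-scaled CPM on a log axis, in the order of wild type CPM per kb; points are single libraries (wild type blue, mutant red) and bars are the arithmetic means of 4. The abundant genes, from Nrcam to Nfasc, lie far above Cntn3 to Cntn6, and for no member do the groups separate.

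The comparison of mutant with wild type asked which of these genes depend on the targeted Hox genes. None of the 10 members passed the test (edgeR quasi-likelihood, adjusted p below 0.05), against 0.359% of all tested genes. Fold changes differed widely within each family: the ratio of mutant to wild type was 2.01 for Chl1, near 1 for L1cam, Nrcam and Nfasc, and 0.644 for Cntn2, and rare Cntn4 and Cntn6 had higher means that came largely from 1 library. The members with an unadjusted p below 0.05 were Chl1 and Cntn2, 2 of 10, where 12.5% of tested genes met that mark. DESeq2 called 1 member, Chl1, against 2.51% of tested genes, and limma-voom called 0, both without and with sample quality weights, against 0.354% and 1.20%. The groups did not separate for any member, while they did for 6.17% of tested genes. Of the members 7 had a positive log2 fold change, with a median of 0.11, where the median of all tested genes was -0.01. In these bulk samples, fewer cells of a type and less RNA per cell cannot be told apart.

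**Figure D2:**
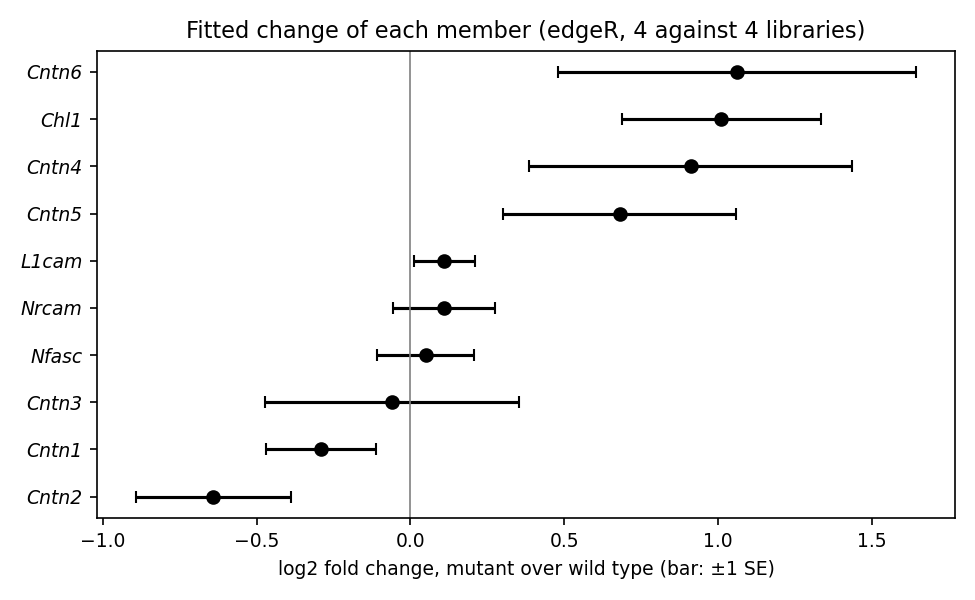
Log2 fold change of mutant over wild type for each member from the edgeR fit of 4 against 4 libraries, with bars of 1 SE either side and a vertical line at no change. Values run from -0.64 for Cntn2 to 1.06 for Cntn6, and the rare contactins have the widest bars.

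Chl1, whose product promotes neurite growth and acts with semaphorin receptors in axon guidance, had the smallest p of the members. It lies on chromosome 6 from 103510586 to 103750211 (ENSMUSG00000030077, mm10). It measured 121, 91.4, 234 and 188 CPM across wild type 5 to 8 and 176, 374, 347 and 377 CPM across mutant 1 to 4. Mutant 2, 3 and 4 were above every wild type library, and mutant 1 lay inside the wild type range. Means were 158 ± 64.3 CPM for wild type and 318 ± 95.8 CPM for mutants (SD, n = 4), and the log2 fold change was 1.01 (SE 0.324; adjusted p = 0.275 by edgeR; two-sided exact permutation p = 0.0857, where the 70 splits of 8 libraries allow no less than 0.0286).

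The other L1 family genes had nearly equal group means. L1cam (chromosome X, 73853778 to 73896105), whose human counterpart is mutated in X-linked hydrocephalus, was at 239, 216, 257 and 271 CPM across wild type 5 to 8 and at 262, 274, 266 and 260 CPM across mutant 1 to 4. The mutant libraries were tightly grouped, with an SD of 5.99 CPM against 23.9 CPM in wild type, and the log2 fold change was 0.11 (SE 0.0998; adjusted p = 0.668 by edgeR). It overlaps 2 other tested genes, Arhgap4 at 6.62 CPM and Avpr2 at 0.966 CPM, whose levels are small beside its own. Nrcam (chromosome 12, 44328885 to 44601964) was at 305, 276, 432 and 369 CPM across wild type 5 to 8 and at 309, 453, 319 and 416 CPM across mutant 1 to 4. Each group thus held high and low libraries, and the log2 fold change was 0.11 (SE 0.166; adjusted p = 0.801 by edgeR). Nfasc (chromosome 1, 132564690 to 132741797) was at 162, 136, 218 and 186 CPM across wild type 5 to 8 and at 180, 172, 151 and 226 CPM across mutant 1 to 4, with a log2 fold change of 0.05 (SE 0.158; adjusted p = 0.915 by edgeR). The counts were not split by isoform, so the neuronal and glial forms of neurofascin were not distinguished.

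Cntn2 had the lowest fold change of the members. It lies on chromosome 1 from 132509427 to 132543256 (ENSMUSG00000053024), 21.4 kb from Nfasc. It measured 291, 408, 415 and 361 CPM across wild type 5 to 8 and 384, 159, 187 and 218 CPM across mutant 1 to 4. Mutant 2, 3 and 4 were below every wild type library, whereas mutant 1 stood among the wild type values. Means were 369 ± 57.1 CPM for wild type and 237 ± 101 CPM for mutants (SD, n = 4), and the log2 fold change was -0.64 (SE 0.251; adjusted p = 0.343 by edgeR; two-sided exact permutation p = 0.0857). Mutant 1 was thus the library inside the wild type range for both Chl1 and Cntn2, although its Hoxb2 level, 6.81 CPM, was far below wild type.

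Cntn1 (chromosome 15, 92051165 to 92341967), the contactin of the paranodal junction, was at 243, 150, 236 and 238 CPM across wild type 5 to 8 and at 127, 205, 185 and 195 CPM across mutant 1 to 4. Wild type 5, 7 and 8 were above all mutant libraries, and wild type 6 lay below mutant 2, 3 and 4. The log2 fold change was -0.29 (SE 0.179; adjusted p = 0.53 by edgeR).

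The 4 rare contactins bind receptor tyrosine phosphatases or amyloid precursor family proteins and are known from subsets of neurons. Cntn3 (chromosome 6, 102162655 to 102573101) was at 3.83, 6.97, 17.8 and 8.91 CPM across wild type 5 to 8 and at 5.66, 10.2, 8.37 and 11.8 CPM across mutant 1 to 4. Its spread was largest in wild type, where wild type 7 stood above all libraries, and the log2 fold change was -0.06 (SE 0.413; adjusted p = 0.968 by edgeR). Cntn5 (chromosome 9, 9660891 to 10904775), the longest of the 10 genes at 1244 kb, was at 2.06, 1.99, 5.38 and 4.02 CPM across wild type 5 to 8 and at 3.18, 5.44, 4.29 and 8.67 CPM across mutant 1 to 4. The groups overlapped, with a log2 fold change of 0.68 (SE 0.378; adjusted p = 0.487 by edgeR).

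Cntn6 (chromosome 6, 104492790 to 104863406) and Cntn4 (chromosome 6, 105677660 to 106699310) lie on the same stretch of chromosome 6 as Chl1, with 743 kb between Chl1 and Cntn6 and 814 kb between Cntn6 and Cntn4. Cntn3, with a log2 fold change of -0.06, lies on the other side of Chl1, with 937 kb between them. Cntn6 was at 0.617, 1.64, 1.49 and 1.22 CPM across wild type 5 to 8 and at 1.21, 6.34, 0.991 and 1.86 CPM across mutant 1 to 4. Cntn4 was at 0.874, 1.64, 2.43 and 1.47 CPM across wild type 5 to 8 and at 1.15, 6.74, 1.63 and 2.62 CPM across mutant 1 to 4. For both genes mutant 2 stood far above the other mutant libraries, which lay mostly among the wild type values. Mutant 2 held 161 Cntn6 reads and 171 Cntn4 reads, and the exact 95% Clopper-Pearson intervals of its unscaled levels, 5.21 to 7.14 and 5.56 to 7.55 CPM, cover counting error only. The log2 fold changes of 1.06 for Cntn6 (SE 0.582; adjusted p = 0.486 by edgeR) and 0.91 for Cntn4 (SE 0.526; adjusted p = 0.502 by edgeR) became 0.14 and 0.18 without mutant 2. In the same library the Hox gene Hoxa5 stood at 14.3 CPM against at most 0.74 CPM elsewhere. The inhibitory neuron markers of mutant 2 summed to 116 CPM, close to the 109.7 CPM of mutant 4, where Cntn6 and Cntn4 were far lower. The part of these in the Cntn6 and Cntn4 values was not tested.

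Levels of Chl1, Nrcam, Cntn3 and Cntn5 were lowest where the cycling markers were highest. The 3 libraries with the highest sums of cycling markers, wild type 5, wild type 6 and mutant 1, also had the 3 lowest sums of the 5 general neuron markers, at 1556, 1563 and 1617 CPM against 2141 to 2694 CPM elsewhere. They were the lowest libraries for Chl1 (91.4 to 176 CPM), Nrcam (276 to 309 CPM), Cntn3 (3.83 to 6.97 CPM) and Cntn5 (1.99 to 3.18 CPM). Among these 3, mutant 1 was above both wild type libraries for Chl1, and among the other 5 the 3 mutant libraries were above wild type 7 and 8. For Cntn2 the 3 libraries ran from 291 to 408 CPM, with mutant 1 between wild type 5 and wild type 6. Among the other 5, mutant 2, 3 and 4 were all below wild type 7 and 8. The part of cycling or neuronal content in these differences was not tested. The fit that leaves these 3 libraries out, given below, also drops mutant 1 and is no test of that content.

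**Figure D3:**
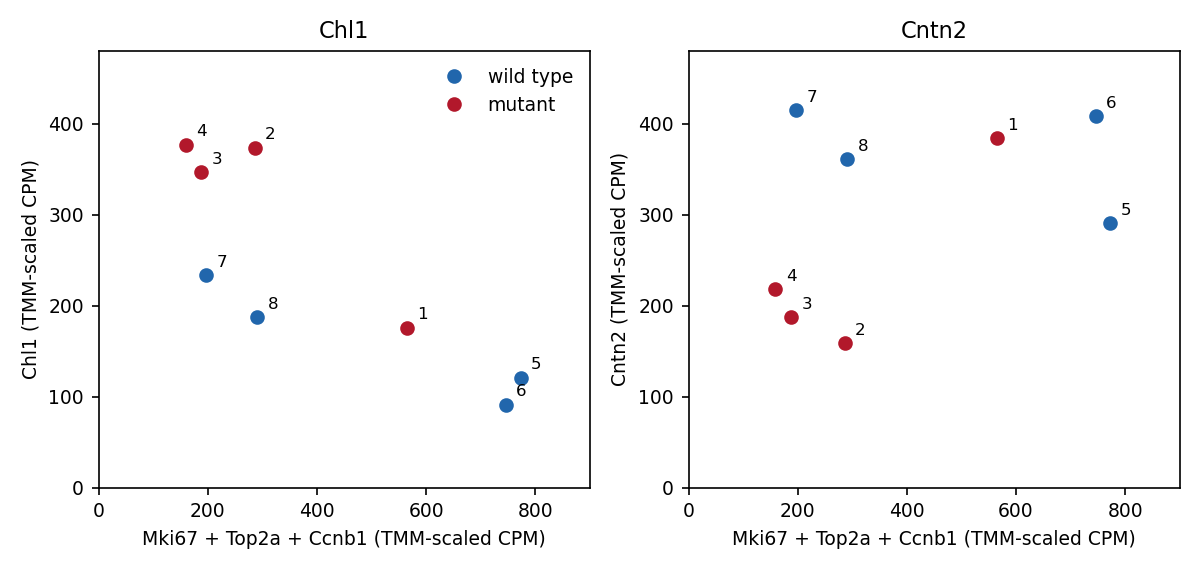
Levels of Chl1 (left) and Cntn2 (right) against the summed level of Mki67, Top2a and Ccnb1 in each library, all in TMM-scaled CPM, with the library number beside each point. Wild type 5, wild type 6 and mutant 1 lie to the right, and among the libraries on the left mutant 2, 3 and 4 sit above wild type 7 and 8 for Chl1 and below them for Cntn2.

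The calls of Chl1 and Cntn2 depended on which libraries were fitted. Without mutant 1, Cntn2 passed as lower in mutants (log2 fold change -0.97, SE 0.152; adjusted p = 0.00869 by edgeR), in a fit that called 2.70% of tested genes, and Chl1 had 1.21 (edgeR adjusted p = 0.0557). With mutant 1 and wild type 5 and 6 all left out, 3 mutant and 2 wild type libraries remained and 0.849% of tested genes were called. In that fit both genes passed, Chl1 at 0.80 (SE 0.139; adjusted p = 0.0265 by edgeR) and Cntn2 at -1.04 (SE 0.152; adjusted p = 0.0112 by edgeR). Both fits leave out mutant 1, the only mutant library inside the wild type range for these genes. The libraries that remain were already seen to separate, so the calls are no independent support for a difference. Over all 18 alternatives in tool, scaling, filter and libraries, adjusted p ran from 0.0265 to 0.638 for Chl1 and from 0.00869 to 0.598 for Cntn2. Both kept their direction in all 18, with log2 fold changes of 0.80 to 1.26 for Chl1 and -1.04 to -0.48 for Cntn2.

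**Figure D4:**
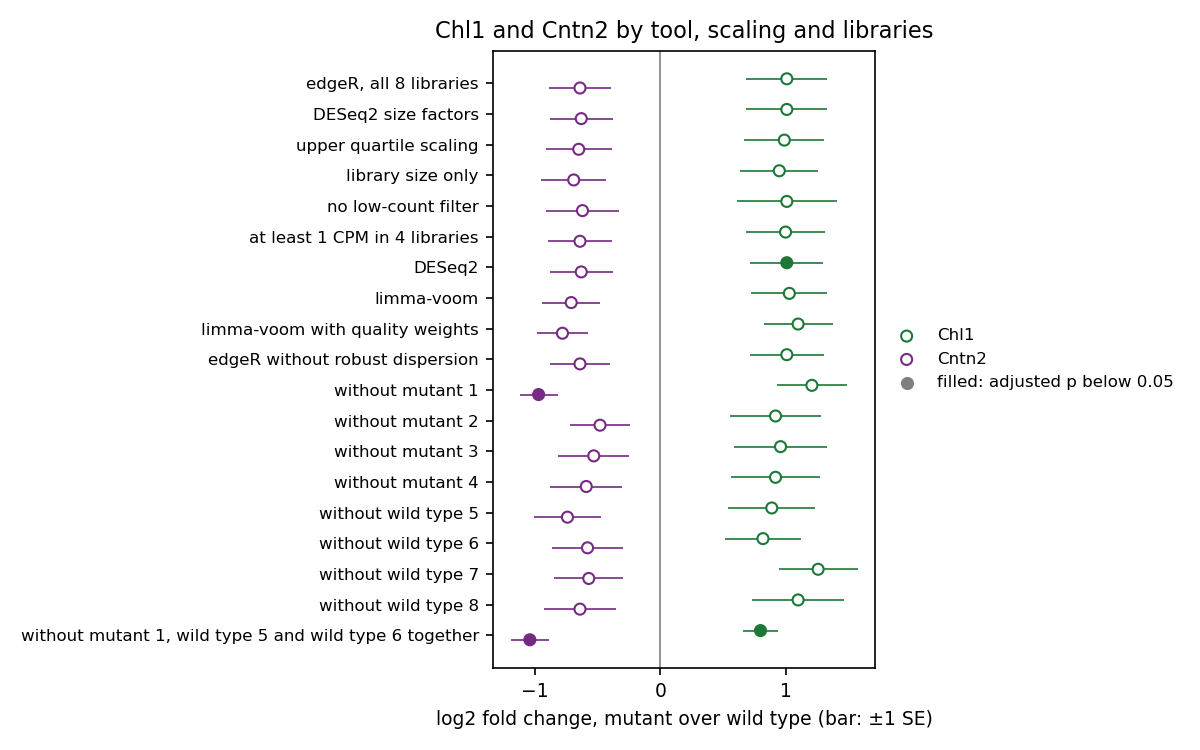
Log2 fold changes of Chl1 (green) and Cntn2 (purple) under the fit of all 8 libraries and 18 alternatives, with bars of 1 SE either side; filled points have an adjusted p below 0.05. All Chl1 points lie right of 0 and all Cntn2 points left of it, and each gene is filled in 2 of the 18 alternatives.

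Within each family the make-up differed between libraries. Cntn2 and Cntn1 together gave most of the contactin level per kb in every library. Cntn2 supplied 52.9%, 70.2%, 59.1% and 57.3% of the contactin sum across wild type 5 to 8 and 72.1%, 38.5%, 46.7% and 47.3% across mutant 1 to 4, so that its share was below every wild type value in mutant 2, 3 and 4. The contactin sum itself was 57.7 to 73.6 CPM per kb in wild type and 42.1 to 55.9 CPM per kb in mutant libraries. Its groups did not overlap, as in 6.17% of single tested genes, though they did for each member. The closest libraries were mutant 1 at 55.9 and wild type 5 at 57.7 CPM per kb. In the L1 family, Chl1 supplied between 13.0% and 21.1% of the sum in wild type libraries and 19.5%, 29.8%, 32.5% and 30.2% across mutant 1 to 4. The ratio of Chl1 to L1cam per kb was 0.401 to 0.863 in wild type and 0.638 to 1.37 in mutant libraries. These sums and shares were formed after the levels were known and are given without a test.

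**Figure D5:**
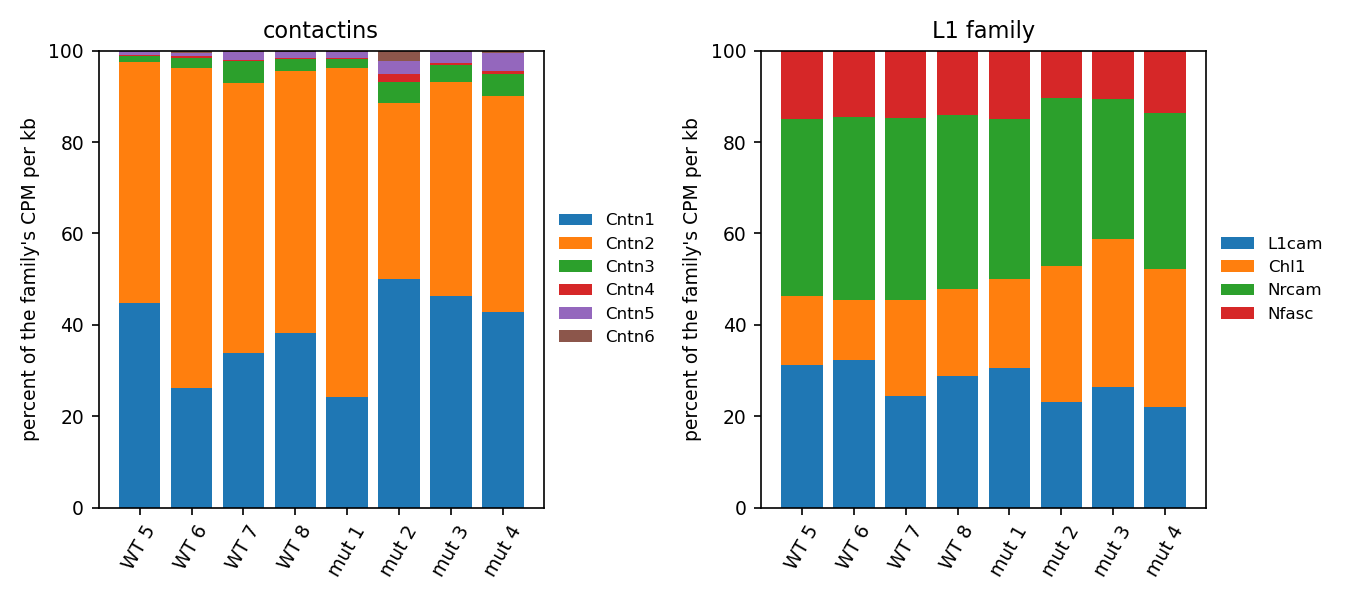
Share of each gene in the summed CPM per kb of the contactins (left) and of the L1 family (right), in percent, in wild type (WT) and mutant (mut) libraries. The Cntn2 share is highest in mutant 1 and lowest in mutant 2, and the Chl1 share is near 30% in mutant 2, 3 and 4.

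Lists of partners, proteases, channels and other immunoglobulin adhesion genes held 99 further genes, all of which were tested. None passed (edgeR adjusted p below 0.05), against 0.359% of all tested genes, and 21 had an unadjusted p below 0.05, against 12.5% of all. Only Ank1, Adam17, Ntm and Ptprf had groups that did not overlap, where 6.17% of all tested genes did so. DESeq2 called 5 of the 99, where it called 2.51% of all tested genes, and limma-voom with quality weights called 2, where it called 1.20%. The 7 Caspr genes, which encode the cis partners of contactins, had a median log2 fold change of 0.23 with 5 positive. Cntnap1 (Caspr), the partner of contactin-1, was at 30.5 ± 2.76 CPM for wild type and 24.7 ± 4.08 CPM for mutants (SD, n = 4; log2 fold change -0.31, SE 0.137; adjusted p = 0.387 by edgeR). Cntnap2 (Caspr2), the partner of contactin-2 at juxtaparanodes, was at 34.8 ± 14.1 and 53.6 ± 18.8 CPM (SD, n = 4; log2 fold change 0.62, SE 0.324; adjusted p = 0.467 by edgeR), and was lowest in wild type 6, wild type 5 and mutant 1.

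Of 19 extracellular and surface partners 7 were positive, with a median of -0.26. The smallest p were those of Gldn, which encodes gliomedin, a nodal ligand of neurofascin and NrCAM, with means of 1.55 CPM for wild type and 0.63 CPM for mutants (log2 fold change -1.32, SE 0.413; adjusted p = 0.236 by edgeR), and of the integrin subunit Itgav (-0.44, SE 0.161; adjusted p = 0.299 by edgeR).

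Among 15 ankyrin, spectrin and other cytoplasmic partners, 7 were positive and the median was -0.04. The adaptor Ank1, which anchors membrane proteins to spectrin, was at 5.11, 7.63, 8.24 and 5.52 CPM across wild type 5 to 8 and at 10.1, 15.9, 9.34 and 20.3 CPM across mutant 1 to 4. Its groups did not overlap, as in 6.17% of all tested genes. The log2 fold change of Ank1, 1.07 (SE 0.262), had an edgeR adjusted p of 0.124 and a DESeq2 adjusted p of 0.00524.

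Of the 6 proteases that shed the outer parts of L1 family proteins, 2 were positive and the median was -0.12. Adam17 had -0.26 (SE 0.111; adjusted p = 0.365 by edgeR), and its groups did not overlap, as in 6.17% of all tested genes. Bace1, which cleaves the Chl1 protein, had 0.17 (SE 0.113; adjusted p = 0.551 by edgeR). Of 17 channels and partners of the initial segment and juxtaparanode, 13 were positive and the median was 0.25. The sodium channel Scn3a had a log2 fold change of 0.40 (SE 0.186; adjusted p = 0.407 by edgeR).

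The 35 other immunoglobulin adhesion genes had a median of 0.11 with 21 positive, and 11 had an unadjusted p below 0.05, against 12.5% of all tested genes. Ntm (neurotrimin), a GPI-anchored IgLON protein, was at 63.7, 74.3, 68.6 and 56.1 CPM across wild type 5 to 8 and at 75.8, 105, 108 and 101.7 CPM across mutant 1 to 4. All its mutant values were above all wild type values, with mutant 1 closest, and the log2 fold change was 0.57 (SE 0.133; adjusted p = 0.102 by edgeR). The other IgLON genes differed in direction. Negr1 had 0.97 (SE 0.265; adjusted p = 0.196 by edgeR) and Lsamp 0.49 (SE 0.176; adjusted p = 0.294 by edgeR), while Iglon5 had -0.02 (SE 0.128; adjusted p = 0.967 by edgeR). Opcml was at 46.5 to 129 CPM in wild type and 31.0 to 57.9 CPM in mutants (log2 fold change -1.03, SE 0.322; adjusted p = 0.259 by edgeR). It passed as lower with DESeq2 (adjusted p = 0.0249), but not without mutant 1 (adjusted p = 0.234 by edgeR). With mutant 1 and wild type 5 and 6 all left out, it passed (adjusted p = 0.0241 by edgeR). That fit drops the lowest wild type values of Opcml, 60.7 CPM in wild type 5 and 46.5 CPM in wild type 6. Its call is thus no independent support for a difference. In the fit without mutant 1, which called 2.70% of all tested genes, 9 of the 99 passed: Ank1, Ntm, Negr1 and Mdga2 as higher, and Msn, Itgav, Dcc, Mdga1 and Sdk2 as lower, with edgeR adjusted p from 0.0106 for Sdk2 to 0.0461 for Itgav. Mutant 1 lay inside the wild type range for Negr1, Mdga2, Msn, Itgav, Dcc and Mdga1, and above it for Sdk2. For these genes the mutant libraries that remain all lay outside the wild type range, so the calls are no independent support for a difference. Lsamp, Iglon5, Opcml, Mdga2, Msn, Dcc, Mdga1 and Sdk2 were named after their values were seen.

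The genes vary in the length of DNA they span, from 33.8 kb for Cntn2 to 1244 kb for Cntn5. Among all tested genes the 218 that span over 500 kb, Cntn4 and Cntn5 among them, had a median log2 fold change of 0.20 with 64.7% positive. For the 744 genes of 200 to 500 kb, which include Cntn1, Cntn3, Cntn6, Chl1 and Nrcam, these values were 0.02 and 52.7%. They were -0.04 and 43.4% for the 3738 genes of 50 to 200 kb, with Nfasc. The 14421 genes under 50 kb, with Cntn2 and L1cam, had -0.00 and 49.3%. The fold changes of 0.91 for Cntn4 and 0.68 for Cntn5 thus belong to a length class whose median was above 0, and the part of gene span in them was not tested.

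Across the 8 libraries, the genes whose centred log2 CPM stayed closest to that of Chl1 were Zfp941, Shtn1 and Sh2d7, with root mean square differences of 0.108, 0.11 and 0.14 among 11906 genes compared (median 0.725). Shtn1, which encodes shootin1 of growing axons, had means of 14.9 CPM for wild type and 31.8 CPM for mutants (log2 fold change 1.09, SE 0.361; adjusted p = 0.28 by edgeR). Because Shtn1 was picked for its likeness to Chl1 in these same libraries, its similar fold change follows from that choice. Closest to Nrcam were the neuronal zinc finger gene Myt1l, the diacylglycerol kinase gene Dgka and Adam22, a receptor of LGI proteins at synapses and juxtaparanodes, with differences of 0.057, 0.0575 and 0.0729 (median 0.32).

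Hox proteins bind DNA together with Pbx and Meis proteins, so the promoters of the members were searched on both strands for the letters TGATNNAT of a Pbx-Hox site and TGACAG of a Meis site. RefSeq (GRCm38.p6) gave 16 promoters for the 10 genes, each of 250 bases before and 50 after a transcript start. The Pbx-Hox letters were in 3 of the 16, against 8.85% of all 32851 promoters, and the Meis letters in 5 of the 16, against 19.2%. Those 5 include a pair of overlapping Cntn5 promoters that share the site. Neither was found in these windows for Chl1, Nrcam, L1cam, Nfasc or Cntn6. The matches are shown because the 2 targeted genes encode such factors, and each is printed 5′ to 3′ on the strand of its gene, with the matched letters in capitals. A match describes the sequence and does not show that a factor binds there.

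Cntn2, Meis letters, minus strand, chr1:132543025-132543054: ctggtccttaaaTGACAGcaaatgaggtaa

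Cntn5, Meis letters, minus strand, chr9:10904892-10904921: gcctggcgacggTGACAGcgcggagcggga

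Cntn1, Meis letters in reverse, plus strand, chr15:92051174-92051203: ccccggctactgCTGTCAagtagctagggt

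Cntn1, Meis letters, plus strand, chr15:92161261-92161290: ccctgaacagaaTGACAGggtttgtgaagt

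Cntn1, Pbx-Hox letters, plus strand, chr15:92161155-92161184: tagggatgaggTGATCAATagcccattact

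Cntn3, Pbx-Hox letters in reverse, minus strand, chr6:102464618-102464642: caaatcattctATTCATCAgagacc

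Cntn4, Pbx-Hox letters, plus strand, chr6:106118809-106118838: gtgtgcgtcttTGATTCATacgctaattac

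Cntn4, Pbx-Hox letters, plus strand, chr6:106118870-106118899: tgggtcctcctTGATTAATgctggcagaga

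All Pbx-Hox matches lie at starts inside the gene, 110.0 kb from the gene's 5′ end for Cntn1, 108.5 kb for Cntn3 and 441.1 and 441.2 kb for Cntn4. Of the Meis matches, the Cntn2, the Cntn5 and the first Cntn1 window lie at the 5′ end of the gene, and the second Cntn1 window lies 110.1 kb inside it. In the Cntn2 promoter the Meis letters begin 102 bases before the start, and no Pbx-Hox letters were found in that window. Cntn4, with both Pbx-Hox matches in a single promoter, and Cntn3 were rare in these cells, as given above.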

How the data were processed

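Raw read counts per Ensembl gene, and a gene length (headed width) used for levels per kb, were deposited by the authors as a single table, per the file headers. Per the submitters' processing notes, bcl2fastq 1.8.4 was used and mm10 was the genome build. Which aligner, counter, strand setting and annotation were used is not given in the sources used here, so sense and antisense reads cannot be told apart. TotalScript libraries were made from 2 ng of RNA with 14 PCR cycles, per the labels' protocols. Headings gave the group but not the replicate number of the titles, so columns were assigned to groups only.

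Counts were tested in R 4.3.3 with edgeR 4.0.16: filterByExpr, TMM scaling, robust quasi-likelihood F test, 4 mutant against 4 wild type libraries, no covariate, and Benjamini-Hochberg adjustment over all 19494 genes tested. Standard errors are the size of the log2 fold change over the square root of F. Alternatives used DESeq2 1.42.0, limma 3.58.1, other scalings and filters, and left-out libraries. The code was tested on simulated data. Total counts were 24789043 to 51118195, and no 2 libraries of a group agreed within sampling noise (lowest chi-square per gene 25.0). Positions are from GENCODE M21. Symbols were matched for 37607 of 39017 genes. All members are named. Of each list, genes past the threshold, or else the 2 with the smallest p, are named, except for items not reported here. Members, lists and the 3 libraries left out together were chosen with earlier results of these data known. Protein sequences were not used here.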

Additional observations from a re-analysis of the deposited data

Results flagged for a closer look

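In 3 of the 20 groups of 4 libraries looked at, the highest or lowest library stood far from the rest (gap over range above Dixon's 95% critical value, which chance exceeds in about 1 of 20 groups). Cntn1 was at 150.3 CPM in wild type 6, where the next wild type library was at 235.6 CPM. Cntn6 was at 6.34 CPM in mutant 2, where the next mutant library was at 1.86 CPM. Chl1 was at 176 CPM in mutant 1, where the next mutant library was at 346.6 CPM.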

How the results depend on the processing

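No paired analysis was possible because the column headings do not carry the replicate numbers of the sample titles. The count of members called was 0 with all libraries, 1 (Chl1) with DESeq2, 2 (Chl1 and Cntn2) with mutant 1 and wild type 5 and 6 all left out, and 0 to 1 with single libraries left out, the 1 being Cntn2 without mutant 1. It was 0 in the other alternatives. Of the 99 listed genes, DESeq2 called 5 (2.51% of all tested genes), limma-voom with quality weights 2 (1.20%), the fit without the 3 libraries 2 (0.849%), and fits without single libraries 0 to 9, the 9 without mutant 1 (2.70%). Of 180 member fold changes under alternatives, 9 turned sign, and the cause was not tested. Cntn3 turned to 0.12 with limma-voom, 0.28 with quality weights, and ranged from -0.32 to 0.46 with single libraries left out. Nfasc turned to -0.01 with library size only, -0.14 without the 3 libraries, and ranged from -0.06 to 0.18 with single libraries left out. Nrcam turned to -0.02 without the 3 libraries. Depth limits mainly Cntn4 and Cntn6, with as few as 34 and 24 reads in a library.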
